A study of Mus musculus with 8 samples.

Results

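Toll-like receptor and NF-κB signalling was followed through 45 genes, named from the textbook pathway and chosen with earlier results of these data known. Their symbols were matched by Ensembl identifier to rows of the deposited gene table, which holds 55416 genes. The list held 12 receptors and co-receptors, 12 adaptors, 9 kinases, 5 NF-κB transcription factors and 7 inhibitors, and all 45 symbols were found. RNA had been sequenced from dorsal epidermis of mice at postnatal day 4, in 4 libraries labelled WT and 4 labelled epidermis Rora knockout. The knockout mice carried a floxed Rora gene (Rora flox/flox) and the K14-Cre transgene, in which a keratin 14 promoter drives Cre recombinase in basal keratinocytes and their descendants, so that immune cells and melanocytes of the epidermis are not its target. They are called RoraEKO here and the others control. The labels do not say which floxed or Cre alleles the control animals carried. Epidermis was peeled off the dermis after heating of the back skin, and each library is therefore a mixture of keratinocytes with the resident cells of the epidermis.

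Toll-like receptors bind conserved parts of microbes, such as bacterial lipoproteins (TLR2) or flagellin (TLR5), and NOD1 and NOD2 bind fragments of the bacterial cell wall inside the cell. The receptors signal through adaptors such as MyD88 to IRAK and TRAF proteins, then to the kinase TAK1 (Map3k7) and the IκB kinase complex, which marks IκB proteins for breakdown and lets NF-κB dimers enter the nucleus. In keratinocytes a separate scaffold, CARD14, assembles with BCL10 and MALT1 and feeds into the same kinase complex. NF-κB in turn raises transcription of several of its own inhibitors, among them IκBα (Nfkbia) and A20 (Tnfaip3).

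Promoter sequences of RefSeq (build GRCm38.p6, 250 bases before to 50 after each start) were at hand for 33 of the 45 genes. The motifs searched, on both strands, were the NF-κB consensus, AGGTCA, which is the core of the element bound by ROR and other nuclear receptors, and TAGGTCA, which contains it. The NF-κB consensus stood in 4.51% of all 32851 promoters and 5.14% of the 27025 genes, and 11 of the 33 members (33.3%) held it. AGGTCA stood in 16.3% of promoters and 18.1% of genes, and 7 of the 33 members (21.2%) held it. TAGGTCA stood in 2.61% of promoters and in 0 of the 33 members. These matches describe letters in a window and not occupied sites, and several of the 11 genes are known targets of NF-κB themselves.

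The promoter of Tlr2 is shown because Tlr2 is the receptor with the clearest difference between the genotypes and holds both motifs. It is given 5′ to 3′ on the strand of the gene, chr3:83841607-83841858 on the minus strand of GRCm38.p6, from 250 bases before the start to 2 bases after it. Capitals mark the matches, first an NF-κB run in which 2 overlapping matches lie, then AGGTCA read on the other strand, then an NF-κB match that ends 2 bases past the start.
Tlr2: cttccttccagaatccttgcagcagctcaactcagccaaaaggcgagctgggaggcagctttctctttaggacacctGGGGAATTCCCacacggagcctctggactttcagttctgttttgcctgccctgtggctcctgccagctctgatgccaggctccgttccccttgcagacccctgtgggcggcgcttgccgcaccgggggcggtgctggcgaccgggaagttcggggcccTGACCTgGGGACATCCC

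Short windows around 1 match each are shown for the transcription factors and inhibitors that hold the NF-κB consensus and for Bcl10. Tlr3, Traf3 and Map3k7 also held the consensus, and no window is shown for them. Each window is 5′ to 3′ on the strand of its gene in GRCm38.p6, with the match in capitals and at most 10 bases on each side.
Rel, chr11:23771042-23771071, minus strand: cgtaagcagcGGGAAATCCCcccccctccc
Nfkb2, chr19:46304688-46304717, plus strand: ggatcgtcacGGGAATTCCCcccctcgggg
Nfkbia, chr12:55492657-55492686, minus strand: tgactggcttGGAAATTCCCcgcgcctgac
Nfkbie, chr17:45555584-45555613, plus strand: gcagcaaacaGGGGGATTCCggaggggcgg
Tnfaip3, chr10:19015403-19015432, minus strand: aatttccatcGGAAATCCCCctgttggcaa
Tnip1, chr11:54962978-54963007, minus strand: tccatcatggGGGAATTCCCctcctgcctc
Bcl10, chr3:145924012-145924040, plus strand: gcgaaggcgGGGAGATCCCgctaaactga
Irak4 is the kinase with the largest log2 fold change, and its promoter held AGGTCA, read on the other strand, 8 bases before the start.
Irak4, chr15:94543642-94543667, plus strand: cacccttagcTGACCTgccctccctg

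Library totals ran from 17286903 to 26705533 counts, and levels are given as counts per 1000000 counts (CPM) after scaling with TMM factors, a correction for library composition. The floor was set at 3 counts, which is 0.113 to 0.196 CPM depending on the library and covers counting error only. The targeted gene Rora was at 212 ± 66.6 CPM in control and 196 ± 34.6 CPM in RoraEKO (SD, n = 4 each), with a log2 fold change of -0.11 (edgeR adjusted p = 0.877), so that its gene-level count did not separate the genotypes and each library's genotype rests on its label. Bmal1, a clock gene activated by RORα, was 2.41 lower on the log2 scale (log2 fold change -2.41, adjusted p = 0.000238), and its genotypes did not overlap. Xist was at 416 and 527 CPM in control libraries C1 and C6, whereas no other library exceeded 0.0546 CPM, so that the sexes were not balanced between the genotypes. Keratinocyte markers summed to between 45300 and 71400 CPM in control and between 86400 and 109000 CPM in RoraEKO, a sum made up mostly of the spinous keratins Krt1 and Krt10, which were higher in every RoraEKO library. The median log2 fold change of the 7 keratinocyte markers was 0.0157. Summed markers of Langerhans cells ran from 79.2 to 230 CPM in control and from 109 to 149 CPM in RoraEKO, those of dendritic epidermal T cells from 19.2 to 52.5 and from 17.6 to 70.8 CPM, and those of macrophages and monocytes from 10.1 to 19.4 and from 13.4 to 19.6 CPM. Summed markers of melanocytes ran from 25.2 to 56.2 CPM in control and from 17.3 to 33.2 CPM in RoraEKO, and all 5 of them had log2 fold changes under 0, with a median of -0.845 and 3 at an unadjusted p under 0.05. Summed markers of dermal fibroblasts ran from 1.37 to 6.38 CPM in control and from 2.51 to 10.4 CPM in RoraEKO, with RoraEKO library C2 the highest. None of the tested marker genes of the 8 lists passed the cutoffs. In a bulk sample, more or fewer cells of a type and more or less RNA per cell cannot be told apart. The libraries came from 4 mice of each genotype, and p-values measure the spread between these samples.

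Of the 45 genes, 37 had enough counts to be tested, and 2 of them, the receptor Tlr2 and the adaptor Card14, rose in the RoraEKO libraries. A gene counted as risen or fallen at an adjusted p under 0.05 and a fold change over 1.5 in the edgeR quasi-likelihood test, with p-values adjusted by Benjamini-Hochberg over all 13147 tested genes, of which 2.3% rose and 3.22% fell. Of the 37 tested members, 2 rose and 0 fell. At an unadjusted p under 0.05, 9 were higher (24.3%) and 1 lower (2.7%, Malt1), against 7.92% and 10.3% of all genes tested. Because the members were chosen with earlier results of these data known, these shares describe the list and test nothing. DESeq2 and the other edgeR tests that were run gave 0 lower members as well, but DESeq2, the likelihood ratio test and the exact test each called 4 members higher, Nod2 and Rel in addition to Tlr2 and Card14. The genotypes did not overlap in 4 members, Tlr2, Card14, Bcl10 and Irak4, each with RoraEKO higher. Among all tested genes the shares were 5.4% with RoraEKO higher and 7.54% with RoraEKO lower. With library size alone in place of TMM, only Tlr2 and Card14 did not overlap. With RLE factors, another correction for library composition, Nfkb1 and Nod2 were added to the 4. The median log2 fold change was 0.249 over the 37 members and -0.0429 over all genes tested. Above 0 were 27 of the 37 members, against 5777 of the 13147 genes tested. In 25 of the 37 members (67.6%) the log2 fold change was under 0.5 in size, against 79% of all genes tested. The count filter was reached by Nod2 in 2 control and 4 RoraEKO libraries, by Ly96 in 3 and 4, by Tlr5 in 4 and 3 and by Cd14 in 2 and 2, so that these counts and the median cover only the genes that passed the filter.

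**Figure D1:**
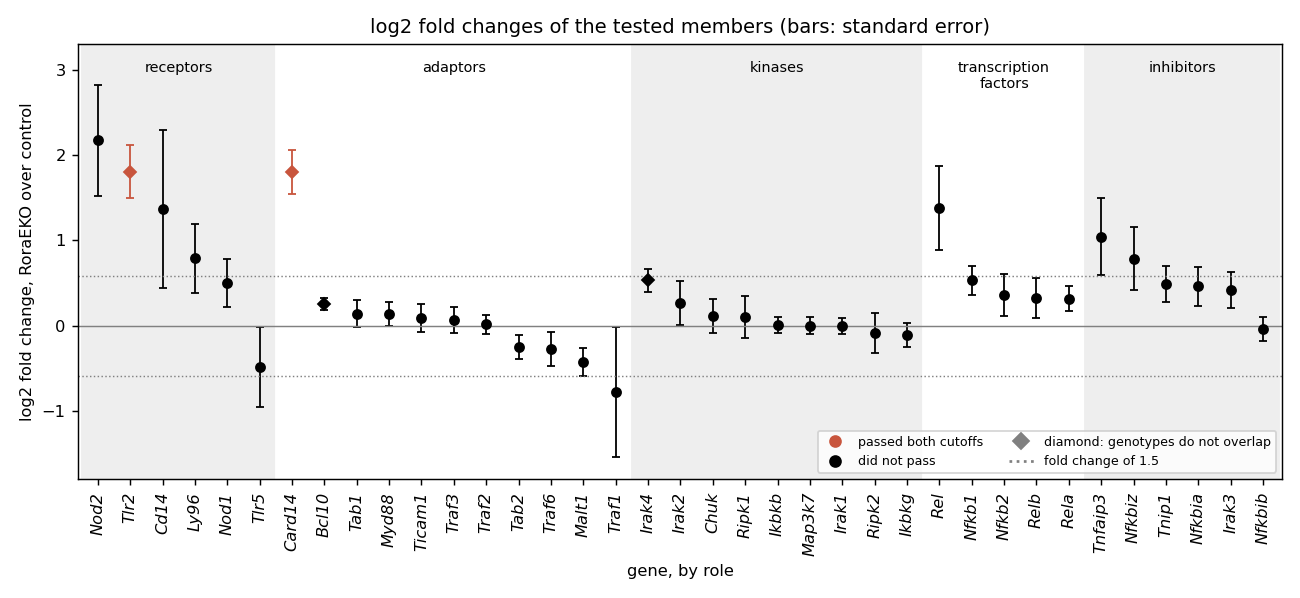
log2 fold change (RoraEKO over control, vertical axis) of the 37 tested members, grouped by role, with the standard error as bars (n = 4 libraries per genotype). Red points passed both cutoffs, which only Tlr2 and Card14 did, diamonds mark genes whose genotypes did not overlap, and dotted lines mark a fold change of 1.5. All 5 transcription factors lay above 0, and 8 of the 9 kinases lay within 0.5 of 0.

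Much of the receptor list could not be compared, because 6 of its 12 genes had too few counts to be tested. Tlr1, Tlr4, Tlr6, Tlr7 and Tlr9 had at most 3 counts in any of the 8 libraries, which is the floor. Tlr4, the receptor for lipopolysaccharide, had 3 counts summed over the control libraries and 8 over the RoraEKO libraries. Tlr3, which binds double-stranded RNA, had 14 counts over the control libraries and 3 over the RoraEKO libraries and was not tested. Each control library, between 0.0751 and 0.237 CPM, was above each RoraEKO library, between 0 and 0.0499 CPM, with at most 5 counts of Tlr3 in a library. For Tlr3, 6 of the 8 libraries were at or under the floor, so that nothing is read from this order. Tlr1 and Tlr6 are close relatives in sequence, and how reads shared between them were assigned is uncertain. At these depths a difference in the 5 genes at or under the floor was not detectable.

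Levels of different genes were compared only per kb of exon. In control libraries Nod1 was the receptor gene with the highest level, 6.69 CPM per kb of exon, followed by Tlr2 at 0.706, Ly96 at 0.653, Cd14 at 0.335, Tlr5 at 0.159 and Nod2 at 0.0979. Nod1 was apart from Tlr2 in every control library, whereas each further pair of neighbours in this order overlapped between libraries. In RoraEKO libraries Tlr2 stood at 2.47 CPM per kb of exon and Ly96 at 1.12, and Nod1 was again the highest, at 9.48.

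**Figure D2:**
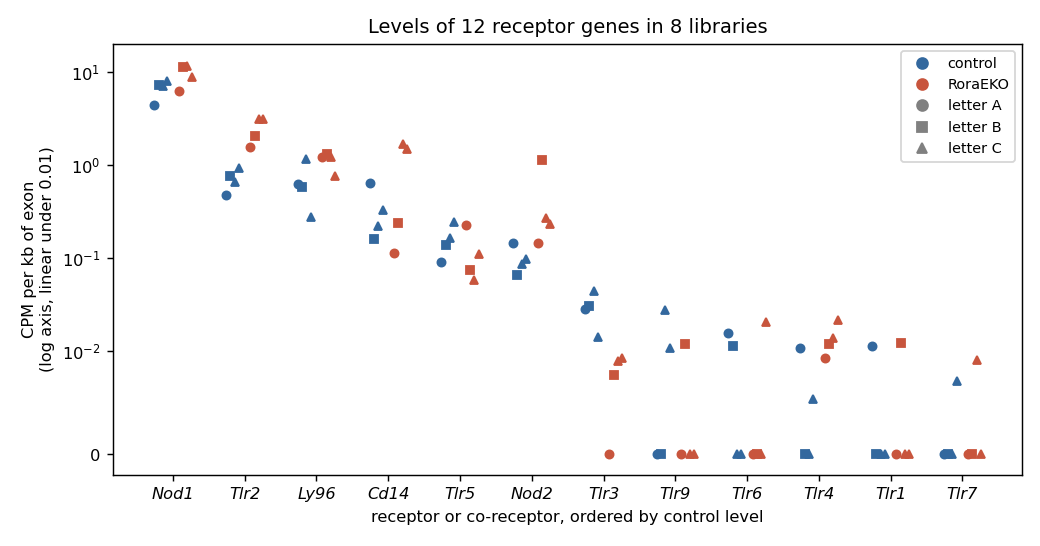
Level of each of the 12 receptor and co-receptor genes in CPM per kb of exon (vertical log axis, linear under 0.01), ordered by control level, with 1 point per library, blue for control and red for RoraEKO, shaped by the letter that opens the sample title. Tlr2 is separated between the genotypes, and the 6 genes on the right were at few or 0 counts in every library.

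Tlr2 (ENSMUSG00000027995), the receptor for bacterial lipoproteins, lies on chromosome 3 of GRCm39, from 83743576 to 83749074 on the minus strand. Its level was 2.59, 4.21, 3.60 and 5.14 CPM in control libraries A1, B1, C1 and C6 and 8.68, 11.3, 17.4 and 17 CPM in RoraEKO libraries A3, B4, C2 and C3. Every RoraEKO library lay above every control library, with the letter C libraries the highest of the knockouts. RoraEKO libraries C2 and C3 also had the highest summed markers of neutrophils, 3.61 and 1.10 CPM, and of endothelial cells, 3.23 and 2.0 CPM. In RoraEKO libraries A3 and B4 these sums lay within the control range. The part of these cells in the level of Tlr2 was not tested. The means were 3.88 ± 1.07 and 13.6 ± 4.30 CPM (SD, n = 4 each), which made the log2 fold change 1.81 with a standard error of 0.316 (edgeR adjusted p = 0.00533). Within the letters A, B and C that open the sample titles, the difference in log2 CPM was 1.71, 1.40 and 1.97.

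Nod2, the cytosolic sensor of muramyl dipeptide, had the largest log2 fold change of the 37 tested members and did not pass the cutoffs. Its level was 0.723, 0.328, 0.426 and 0.488 CPM in control libraries A1, B1, C1 and C6 and 0.718, 5.71, 1.35 and 1.15 CPM in RoraEKO libraries A3, B4, C2 and C3. RoraEKO library B4 stood far above the others, and RoraEKO library A3 lay within the control range. The log2 fold change was 2.17 (standard error 0.647, edgeR adjusted p = 0.0953), and without RoraEKO library B4 it was 1.11.

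Nod1, the sensor of a peptidoglycan fragment from Gram-negative bacteria, had the highest level of the receptors. Its level was 26.2, 43.4, 41.6 and 47.3 CPM in control libraries A1, B1, C1 and C6 and 36.9, 67.1, 68.0 and 52.8 CPM in RoraEKO libraries A3, B4, C2 and C3. The genotypes overlapped through RoraEKO library A3, and the log2 fold change of 0.51 (standard error 0.281, edgeR adjusted p = 0.293) did not pass. Tlr5, the flagellin receptor, was the only tested receptor with a log2 fold change under 0, at -0.49 (adjusted p = 0.69), and with Xist as a covariate that of Tlr5 was 0.01.

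The lipopolysaccharide co-receptors were near the lower end of what could be tested. Cd14, which hands lipopolysaccharide and lipoproteins to the receptors, was at 1.10, 0.273, 0.379 and 0.563 CPM in control libraries A1, B1, C1 and C6 and at 0.196, 0.411, 2.94 and 2.55 CPM in RoraEKO libraries A3, B4, C2 and C3. RoraEKO libraries C2 and C3 were above all controls, and RoraEKO library A3 was below all of them (log2 fold change 1.37 with a standard error of 0.929, edgeR adjusted p = 0.42). These are the libraries with the highest neutrophil and endothelial marker sums, against at most 0.826 and 0.875 CPM in control, and the part of these cells in the level of Cd14 was not tested. Ly96 (MD-2), the partner of TLR4, had a log2 fold change of 0.79 (adjusted p = 0.376).

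Among the adaptors, Card14 rose and the 10 other tested genes did not change by the cutoffs. Card14 (ENSMUSG00000013483) is the CARMA scaffold of keratinocytes and lies on chromosome 11 of GRCm39, from 119198591 to 119236206 on the plus strand. Its level was 44.7, 50.1, 32.4 and 59.6 CPM in control libraries A1, B1, C1 and C6 and 117, 146, 209 and 180 CPM in RoraEKO libraries A3, B4, C2 and C3. The lowest RoraEKO library was above the highest control library. The means were 46.7 ± 11.4 and 163 ± 40.0 CPM (SD, n = 4 each), which made the log2 fold change 1.80 with a standard error of 0.26 (edgeR adjusted p = 0.00194). Within letters A, B and C the difference in log2 CPM was 1.38, 1.54 and 2.14.

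Per kb of exon, Card14 stood at 10.1 CPM in control, below Tab2, Nfkbia and Traf6, and at 35.1 CPM in RoraEKO, above all other 44 members. Sgsh, a lysosomal enzyme gene that overlaps Card14 on the other strand, was between 1.31 and 2.80 CPM in the 8 libraries with a log2 fold change of -0.03 (adjusted p = 0.979). The strand setting of the counting was not given in the sources used here, and the part of Sgsh in the counts of Card14 was not tested.

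The genes of the partners of CARD14 did not pass the cutoffs. Bcl10 was at 8.98, 9.62, 7.81 and 8.86 CPM in control libraries A1, B1, C1 and C6 and at 10.2, 11.3, 10.2 and 10.2 CPM in RoraEKO libraries A3, B4, C2 and C3. The genotypes did not overlap after TMM scaling but did with library size alone, and the difference was small, with a log2 fold change of 0.25 (standard error 0.071, edgeR adjusted p = 0.326). Malt1, the protease of the complex, was the one member with an unadjusted p under 0.05 and a negative log2 fold change, at -0.43 (standard error 0.161, edgeR adjusted p = 0.218), with 10.1 ± 2.14 CPM in control and 7.50 ± 0.575 CPM in RoraEKO.

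The adaptors shared by the Toll-like receptors had log2 fold changes near 0. Myd88, used by all Toll-like receptors except TLR3, was at 32.4 ± 3.86 and 35.6 ± 5.12 CPM (SD, n = 4 each), for a log2 fold change of 0.14 (edgeR adjusted p = 0.694). Ticam1 (TRIF), the adaptor of TLR3, was at 5.52 ± 0.402 and 5.87 ± 1.30 CPM (log2 fold change 0.09, adjusted p = 0.882). Tirap, which bridges TLR2 and TLR4 to MyD88, had between 2 and 18 counts in a library and was not tested.

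The TRAF and TAB adaptors did not pass either. Traf6, the ubiquitin ligase that acts after the IRAK kinases, was at 112 ± 22.8 and 92.0 ± 17.1 CPM (log2 fold change -0.28, adjusted p = 0.503). Tab2, the ubiquitin-binding partner of TAK1, was at 145 ± 20.9 and 122 ± 16.4 CPM (log2 fold change -0.25, adjusted p = 0.432). Traf1 had the lowest log2 fold change of the members, -0.78 (standard error 0.766, edgeR adjusted p = 0.642), with 9.36 CPM in control library A1 and between 0.867 and 2.55 CPM in the other 7 libraries. Without control library A1 the log2 fold change of Traf1 turned to 0.43 (adjusted p = 0.618 in edgeR), so that this library set its direction. Traf2, Traf3 and Tab1 had log2 fold changes of 0.02, 0.06 and 0.14.

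The kinases were the flattest of the roles, with a median log2 fold change of 0.01 over 9 tested genes and 0 of 9 past the cutoffs. Map3k7 (TAK1) was at 46.3 ± 3.71 CPM in control and 46.3 ± 4.98 CPM in RoraEKO (SD, n = 4 each). Irak1 was at 27.8 ± 3.15 and 27.7 ± 1.72 CPM, and Ikbkb, the catalytic subunit IKKβ, at 27.2 ± 2.23 and 27.4 ± 2.54 CPM. Leaving out Irak4, the log2 fold changes of the other 8 kinases ran from -0.11 to 0.27, with standard errors from 0.089 to 0.258.

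Irak4, the first kinase recruited by MyD88, was the only kinase at an unadjusted p under 0.05. It was at 3.73, 4.92, 5.16 and 5.07 CPM in control libraries A1, B1, C1 and C6 and at 5.74, 7.03, 7.18 and 7.29 CPM in RoraEKO libraries A3, B4, C2 and C3. The genotypes did not overlap after TMM scaling but did with library size alone, and the letter A library was the lowest of each genotype. The log2 fold change of 0.53 (standard error 0.134, edgeR adjusted p = 0.11) missed both cutoffs. Twf1, which overlaps Irak4 on the other strand, was between 68.6 and 209 CPM in the 8 libraries. Its log2 fold change was -0.80 (edgeR adjusted p = 0.0453), in the other direction. Pus7l also overlaps Irak4 on the other strand, at 1.64 to 2.32 CPM in control and 1.89 to 2.75 CPM in RoraEKO. The log2 fold change of Pus7l was 0.179 (edgeR adjusted p = 0.77), in the same direction. The part of Twf1 and Pus7l in the counts of Irak4 was not tested.

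Irak2, another kinase of the MyD88 complex, had the highest level of the kinases per kb of exon in RoraEKO, at 5.58 CPM. It was at 21.4, 29.6, 24.0 and 37.0 CPM in control libraries A1, B1, C1 and C6 and at 25.7, 27, 45.1 and 36.7 CPM in RoraEKO libraries A3, B4, C2 and C3. The genotypes overlapped widely (log2 fold change 0.27 with a standard error of 0.258, edgeR adjusted p = 0.626).

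**Figure D3:**
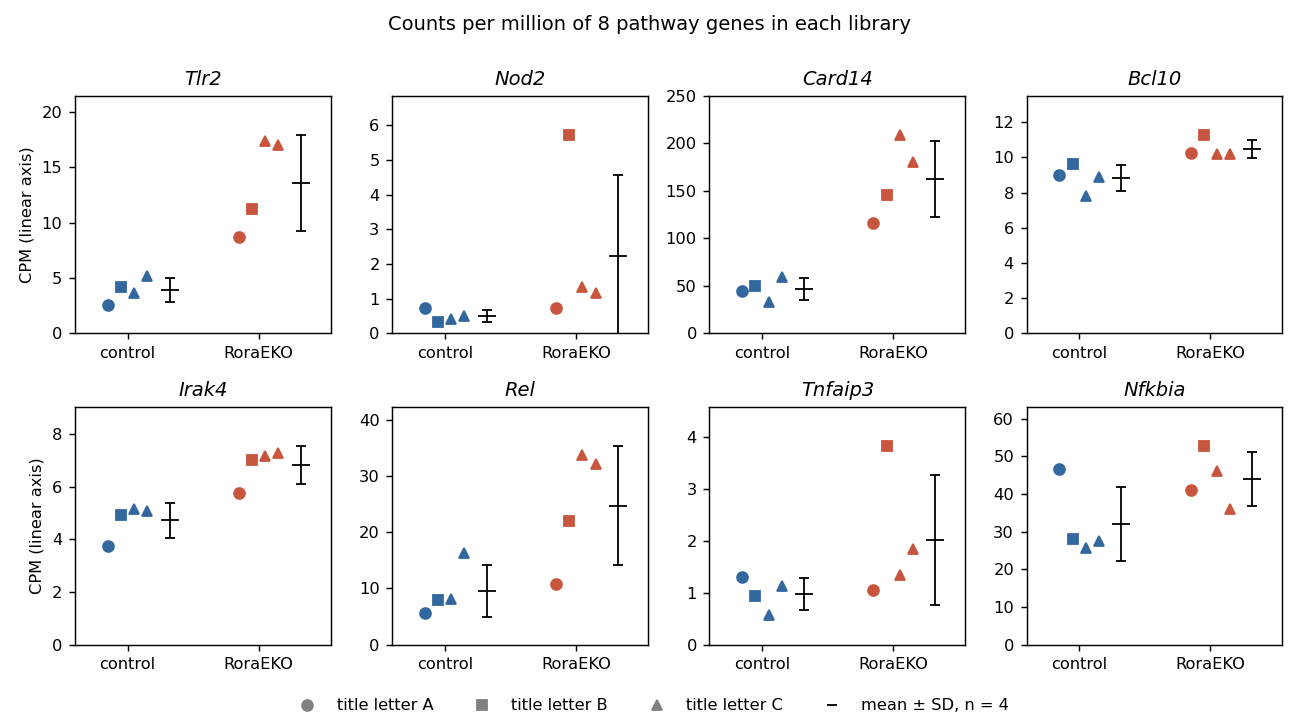
Level of 8 members in CPM (vertical linear axes from 0) in each of the 4 control and 4 RoraEKO libraries, shaped by the letter that opens the sample title, with the mean and SD in black. Tlr2 and Card14 do not overlap between the genotypes, nor do Bcl10 and Irak4 after TMM scaling, and RoraEKO library B4 stands highest for Nod2, Tnfaip3 and Nfkbia.

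All 5 NF-κB transcription factors had log2 fold changes above 0, with a median of 0.36, and none passed the cutoffs (0 of 5, with Nfkb1 and Rel at an unadjusted p under 0.05, and with Rel called by DESeq2). Rel (c-Rel) had the largest difference. It was at 5.6, 7.87, 8.19 and 16.3 CPM in control libraries A1, B1, C1 and C6 and at 10.8, 22.0, 33.8 and 32.1 CPM in RoraEKO libraries A3, B4, C2 and C3. The genotypes overlapped through control library C6 and RoraEKO library A3. The means were 9.48 ± 4.66 and 24.7 ± 10.6 CPM (SD, n = 4 each), which made the log2 fold change 1.38 with a standard error of 0.494 (edgeR adjusted p = 0.0838).

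The call for Rel depended on these libraries and on the test. Without RoraEKO library A3 the adjusted p of Rel was 0.025, and without control library C6 it was 0.029. DESeq2 gave Rel an adjusted p of 0.00898. Over all 19 alternative fits the adjusted p of Rel ran from 0.006 to 0.217, and 7 of them called it higher. Within letters A, B and C the difference in log2 CPM of Rel was 0.942, 1.47 and 1.5.

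Rela (p65), the subunit with the highest level per kb of exon, was at 34.8, 30.9, 26.2 and 29.6 CPM in control libraries A1, B1, C1 and C6 and at 33.6, 47.3, 37.7 and 32.8 CPM in RoraEKO libraries A3, B4, C2 and C3. Only RoraEKO libraries B4 and C2 lay above the control range (log2 fold change 0.32, adjusted p = 0.299). Nfkb1, which encodes p105 and p50, was at 14.7 ± 2.55 and 21.2 ± 3.07 CPM (log2 fold change 0.53 with a standard error of 0.17, edgeR adjusted p = 0.102). Nfkb2 (p100 and p52) and Relb, the pair of the alternative pathway, had log2 fold changes of 0.36 and 0.32 (adjusted p = 0.459 and 0.565).

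Of the 7 inhibitors, 6 were tested, and 5 of these had log2 fold changes above 0, with a median of 0.476 and 0 past the cutoffs (3 at an unadjusted p under 0.05, Nfkbiz, Tnfaip3 and Tnip1, and 0 called by DESeq2). Nfkbia (IκBα), which holds NF-κB in the cytoplasm, was at 46.6, 28.0, 25.6 and 27.5 CPM in control libraries A1, B1, C1 and C6 and at 41.1, 52.6, 46.2 and 36.0 CPM in RoraEKO libraries A3, B4, C2 and C3. Every RoraEKO library was above control libraries B1, C1 and C6, whereas control library A1 was above 3 of the 4 RoraEKO libraries. The log2 fold change was 0.46 (standard error 0.23, edgeR adjusted p = 0.28), and without control library A1 it was 0.70 (adjusted p = 0.0196).

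Tnfaip3 (A20), which removes ubiquitin chains from the pathway's proteins, was at 1.29, 0.929, 0.568 and 1.13 CPM in control libraries A1, B1, C1 and C6 and at 1.04, 3.82, 1.35 and 1.85 CPM in RoraEKO libraries A3, B4, C2 and C3. RoraEKO library A3 lay within the control range and B4 was the highest (log2 fold change 1.04 with a standard error of 0.452, edgeR adjusted p = 0.25), and without RoraEKO library B4 the log2 fold change of Tnfaip3 was 0.53. Nfkbiz, an IκB protein that acts in the nucleus, was listed with the inhibitors, and whether it inhibits NF-κB here was not tested. Its level was 10.3 ± 3.86 and 17.7 ± 4.73 CPM (log2 fold change 0.79, edgeR adjusted p = 0.195). Tnip1, which helps A20, was at 41.2 ± 11.5 and 57.8 ± 7.48 CPM (log2 fold change 0.49, adjusted p = 0.206).

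Irak3, a brake on the MyD88 complex, had a log2 fold change of 0.42 (adjusted p = 0.299), and Nfkbib (IκBβ) had one of -0.04 (adjusted p = 0.943). Nfkbie had between 3 and 13 counts in a library and was not tested. RoraEKO library B4 was the highest of the RoraEKO libraries in 6 of the 6 tested inhibitors and in 9 of the 11 tested inhibitors and transcription factors, against 27.3% of all genes tested. The same library held 706 CPM of Krt14 and 371 CPM of Krt5, the keratins of basal keratinocytes, against between 96.2 and 187 CPM of Krt14 and between 63.4 and 78.1 CPM of Krt5 in the other 3 RoraEKO libraries. The part of these basal keratinocyte markers in the inhibitors' levels was not tested.

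RoraEKO library A3 was the lowest of its genotype in 23 of the 37 tested members (62.2%), against 28.9% of all genes tested. Control library A1 was the lowest control library in 8 of the 9 kinases, and RoraEKO library A3 was the lowest RoraEKO library in 7 of the 9, against 35.6% and 28.9% of all genes tested. Within letter A 20 of the 37 members (54.1%) had a difference in log2 CPM above 0, within letter B 30 (81.1%) and within letter C 25 (67.6%), against 43.4%, 48.8% and 46.9% of all genes tested. Within all 3 letters 13 members (35.1%) were above 0, against 17.7% of all genes tested. What the letter stands for is not given in the labels.

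**Figure D4:**
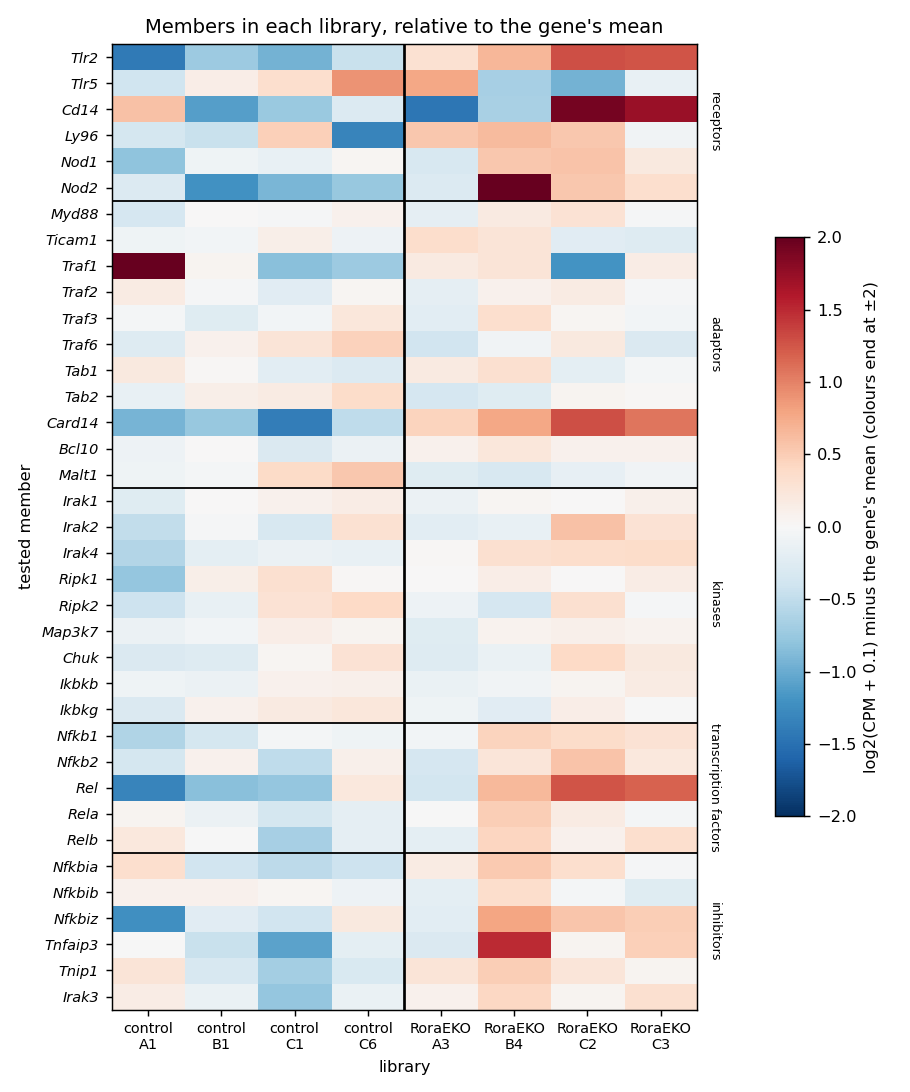
log2(CPM + 0.1) of each of the 37 tested members (vertical axis, by role) in each of the 8 libraries (horizontal axis), minus the gene's mean over the libraries, with blue for lower and red for higher and the colours ending at 2 on either side. Tlr2 and Card14 change colour between the genotypes, and Nfkbia, Tnip1 and Irak3 are above their mean in control library A1.

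A further 50 genes of the pathway were listed, of which 41 were tested. Of these 41, 1 rose, Bcl3, and 3 fell, Sarm1, Map3k14 and Irf7, beside 2.3% and 3.22% of all genes tested. Bcl3, an IκB family protein that binds p50 and p52 in the nucleus, was at 6.51, 5.68, 4.40 and 3.27 CPM in control libraries A1, B1, C1 and C6 and at 11.6, 20.9, 14.7 and 12.2 CPM in RoraEKO libraries A3, B4, C2 and C3. The genotypes did not overlap (log2 fold change 1.58 with a standard error of 0.288, edgeR adjusted p = 0.00694).

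Sarm1, a TIR-domain protein that restrains TRIF signalling and consumes NAD, was at 2.17, 3.72, 2.41 and 4.5 CPM in control libraries A1, B1, C1 and C6 and at 0.457, 0.288, 0.289 and 0.699 CPM in RoraEKO libraries A3, B4, C2 and C3. Sarm1 reached the count filter in all 4 control libraries and 1 RoraEKO library and so was tested through the genotype in which it was higher. All 4 RoraEKO libraries were far below the lowest control (log2 fold change -2.88 with a standard error of 0.351, edgeR adjusted p = 0.00302). Irf7, a transcription factor for type I interferon genes, was at 11.5, 17.8, 15.9 and 30.9 CPM in control libraries A1, B1, C1 and C6 and at 4.57, 3.16, 5.83 and 3.89 CPM in RoraEKO libraries A3, B4, C2 and C3 (log2 fold change -2.13 with a standard error of 0.347, edgeR adjusted p = 0.00442). Its genotypes were apart as well, with control library C6 the highest.

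Map3k14 (NIK), the kinase that starts the alternative NF-κB pathway, was at 3.88, 5.03, 2.60 and 6.19 CPM in control libraries A1, B1, C1 and C6 and at 1.63, 1.93, 1.21 and 1.70 CPM in RoraEKO libraries A3, B4, C2 and C3 (log2 fold change -1.45 with a standard error of 0.296, edgeR adjusted p = 0.0197). The genotypes did not overlap, but 5 of the 8 fits with 1 library left out gave Map3k14 an adjusted p over 0.05, up to 0.0787, and the fit with Xist as a covariate gave 0.0693. Bcl3 and Irf7 were called in all 8 fits with 1 library left out. In all, 8 of the 41 tested genes had genotypes that did not overlap, 1 with RoraEKO higher and 7 with RoraEKO lower, beside 5.4% and 7.54% of all genes tested. The other 4 were Tollip, Cyld, Card10 and Btrc, whose log2 fold changes were -0.46, -0.82, -0.87 and -0.82 (edgeR adjusted p = 0.105, 0.0707, 0.0862 and 0.179), and these 4 were named after their values were seen. Tollip binds IRAK proteins and Cyld removes ubiquitin chains, and both are known as inhibitors of the pathway. The median log2 fold change of the 41 genes was 0.0896.

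Of 31 genes known as NF-κB targets in epithelium, 13 were tested. Of these, 2, Tslp and Saa1, passed the cutoffs with RoraEKO higher and 0 with RoraEKO lower, beside 2.3% and 3.22% of all genes tested. At an unadjusted p under 0.05, 7 were higher and 0 lower, beside 7.92% and 10.3% of all genes tested, and DESeq2 called 0 lower. Tslp and Saa1 reached the count filter in 0 of the 4 control libraries and all 4 RoraEKO libraries. Both were thus tested only because they were higher in RoraEKO. Il1b, Icam1 and Tnf also reached the filter in all 4 RoraEKO but not all 4 control libraries. The counts are therefore partly set by the filter, and nothing is read from them. With a filter of at least 10 counts in every library, 0 targets were called. Tslp, a cytokine made by keratinocytes, was at 0, 0.0546, 0 and 0.0375 CPM in control libraries A1, B1, C1 and C6, at most 1 count in a library, and at 1.04, 0.863, 1.45 and 1.70 CPM in RoraEKO libraries A3, B4, C2 and C3 (edgeR adjusted p = 0.00119). Saa1, an acute-phase apolipoprotein, was at 0.0761, 0.164, 0 and 0.225 CPM in the same control libraries and at 0.653, 0.534, 0.771 and 0.849 CPM in the same RoraEKO libraries (log2 fold change 2.51 with a standard error of 0.413, edgeR adjusted p = 0.0408). In both genes the genotypes did not overlap, and the levels were low. Saa1 was called in only 2 of the 8 fits with 1 library left out, with an adjusted p of up to 0.116 in the others. Saa1 has close relatives in its family, and how shared reads were assigned is uncertain.

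Il1a, which encodes the cytokine IL-1α, was the third target gene whose genotypes did not overlap, with 18.8 ± 4.68 CPM in control and 42.5 ± 19.8 CPM in RoraEKO, and it missed the adjusted p (log2 fold change 1.18, adjusted p = 0.0557). Il1b, with 1.10 ± 1.06 and 5.71 ± 2.81 CPM, overlapped through control library A1 and RoraEKO library A3 (log2 fold change 2.37, adjusted p = 0.0696). S100a9, a calcium-binding protein of stressed keratinocytes and neutrophils, was between 1.23 and 4.68 CPM in control. In RoraEKO it was at 60.9 CPM in library B4 and between 3.79 and 10.6 CPM in the other libraries. The genotypes overlapped through control library A1 and RoraEKO library A3 (log2 fold change 3.14, edgeR adjusted p = 0.061). Il1a, Il1b and S100a9 were named after their values were seen.

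**Figure D5:**
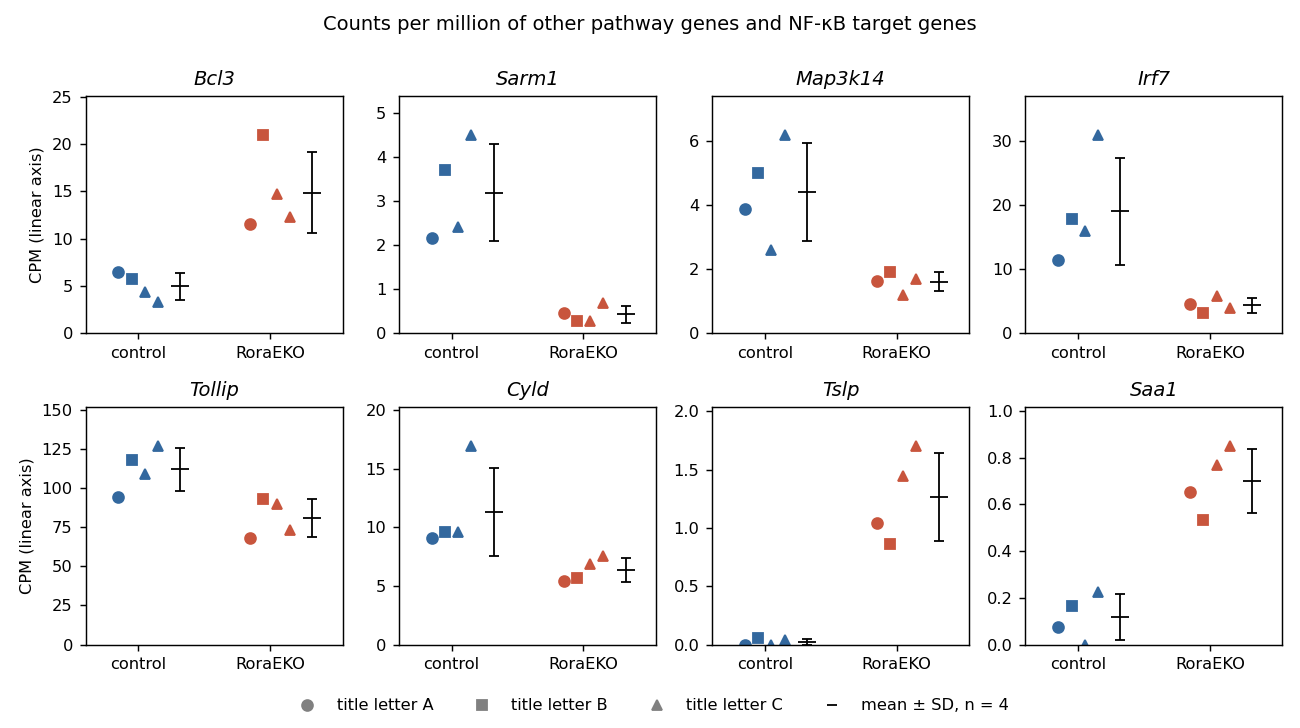
Level in CPM (vertical linear axes from 0) of 6 other pathway genes and of the NF-κB target genes Tslp and Saa1 in each control and RoraEKO library, shaped by the letter that opens the sample title, with the mean and SD in black. The genotypes do not overlap in any of the 8 panels, with RoraEKO higher for Bcl3, Tslp and Saa1 and lower for Sarm1, Map3k14, Irf7, Tollip and Cyld.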

How the data were processed

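Libraries were made from epidermal RNA with a TruSeq stranded kit. According to the submitters' processing notes and the study's methods, reads were converted with bcl2fastq 2.20.0.422, trimmed, mapped to GRCm39 with STAR 2.5.3a and counted with RSEM. The authors deposited expected counts per Ensembl gene, with no scaling, in 8 columns, and 0 columns belonged to no sample. Of 55416 identifiers, 54749 were found in GENCODE mouse release 39, which gave symbols and coordinates. The annotation release the authors counted against and the strand setting were not given in the sources used here.

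Expected counts were rounded to whole numbers, filtered with filterByExpr (13147 genes), scaled with TMM and tested with edgeR 4.0.16 (R 4.3.3), using its legacy quasi-likelihood test and no covariate. A gene passed at a Benjamini-Hochberg adjusted p under 0.05 together with a fold change over 1.5. Standard errors are those of the difference in mean log2 CPM (prior count 2). Alternatives were DESeq2 1.42.0, RLE factors or library size alone, the exact, likelihood ratio, robust and non-legacy tests of edgeR, other filters and cutoffs, Xist, as log2(CPM + 1), as a covariate, the title letter as a block, and each library left out. The scripts were tested on simulated data.

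The members and the gene lists were chosen with earlier results of these data known. Values in every library are given for members that passed or did not overlap and, in each role, for the member with the largest log2 fold change in size and that with the highest level per kb of exon, for Cd14, chosen after its values were seen, and for genes of the other lists that passed. Promoters are those of RefSeq, GRCm38.p6. Plots were drawn with matplotlib 3.10.9.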

Additional observations from a re-analysis of the deposited data

Results flagged for a closer look

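In groups of 4 libraries, a library was taken to stand apart when its gap to the nearest other library made up more of the group's whole range than Dixon's critical value at 95%. Of 74 groups looked at, 9 were past it, and chance gives about 5%. For the receptors, RoraEKO library B4 stood apart upward for Nod2, with a gap of 0.874 of the range, and RoraEKO library C3 stood apart downward for Ly96, with 0.834. For the adaptors, control library A1 stood apart upward for Traf1 with 0.872, RoraEKO library C2 stood apart downward for Traf1 with 0.88, and RoraEKO library B4 stood apart upward for Bcl10 with 0.944, within a range of 10.2 to 11.3 CPM. For the kinases, the letter A libraries were the low ones, with control library A1 at 0.831 and RoraEKO library A3 at 0.83 for Irak4, and RoraEKO library A3 at 0.859 for Map3k7. Control library A1 stood apart upward for Nfkbia, with 0.885. Of the 9 groups, 3 involved control library A1 and 2 RoraEKO library A3.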

How the results depend on the processing

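Tlr2 and Card14 were called higher in all 19 alternative fits, with leave-one-out log2 fold changes from 1.65 to 2.02 for Tlr2 and from 1.66 to 1.98 for Card14, and 0 members were called lower in any of them. The count of members called higher, 2, became 4 with DESeq2, the likelihood ratio test and the exact test of edgeR and with an adjusted p under 0.1, Nod2 and Rel being the added genes. With the title letter as a replicate block it was also 4, the added genes being Nfkbiz (log2 fold change 0.80, adjusted p = 0.0175) and Rel. In that edgeR fit the adjusted p was 0.028 for Nod1 and 0.043 for Irak4. Their log2 fold changes there, 0.502 and 0.533, missed the fold change cutoff. Leaving out 1 library gave from 2 to 4, with 4 without control replicate A1 (Nfkbia and Tnip1 added) and 4 without RoraEKO replicate A3 (Nfkb1 and Rel added). The labels share no replicate number between the genotypes, and what the letter stands for is not given. Deviations from the group means correlated at 0.483 for the letter A pair, from 0.131 to 0.436 for the 4 letter C pairs and at 0.0498 for the letter B pair, against -0.517 to 0.282 between letters. Since the letter B pair was under 0.1, the letter was not taken to pair the libraries, although the other same-letter pairs deviated together.

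The count of other pathway genes called, 4, was 7 with DESeq2 and from 3 to 6 with 1 library left out. The count of NF-κB targets called, 2, was 0 with at least 10 counts required in every library, 5 with DESeq2, 4 without control replicate A1, 5 without RoraEKO replicate A3, and 1 without control replicate B1 or RoraEKO replicate B4, C2 or C3. The 4 members without overlap became 2 with library size alone, 6 with RLE factors and from 4 to 11 with 1 library left out. The count was 11 without control replicate A1 or RoraEKO replicate A3. For the overlap, leaving out a library was an alternative chosen after seeing the data. With the scaling kept, leaving out a library cannot lower such a count. The share over all genes was not counted with a library left out, so that nothing is read from these counts. Over all genes, the 302 higher and 423 lower genes became 478 and 553 with DESeq2, 174 and 286 with Xist as a covariate, 174 and 283 without control replicate B1 and 188 and 287 without RoraEKO replicate C3. Genes with few counts, among them 6 of the 12 receptors, were below what this depth could compare.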
